A study of Mus musculus with 2 samples.

Results

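The liver genes described here serve mitochondrial oxidation of fatty acids and the formation of ketone bodies. The list holds 32 genes of the carnitine shuttle, the acyl-CoA dehydrogenases, the enzymes that shorten the acyl chain, electron transfer, ketone body and propionyl-CoA metabolism, the pyruvate dehydrogenase kinases, the coactivator Ppargc1a and the uncoupling protein Ucp2. The genes were matched by symbol or gene ID, and every probe set annotated to exactly 1 of them was taken. This gave 61 probe sets of 31 genes. All 31 lay above the detection floor in both samples, among 12059 genes measured in the liver. Ucp2 was not analysed here, because no probe set was annotated to it alone.

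Both groups were 12-week-old male mice on chow that had fasted for 6 hr, and both carried homozygous Lpcat3 alleles with loxP sites flanking an exon (Lpcat3fl/fl). The Flox/Flox mice had no Cre, and the L-Lpcat3 KO mice carried the Albumin-Cre transgene, whose promoter acts in hepatocytes. The paper regards cells without this transgene, such as Kupffer and endothelial cells, as the likely source of Lpcat3 mRNA left in the liver. Liver RNA of 5 mice was pooled per genotype and each pool was hybridized to 1 Affymetrix Mouse Genome array. There are therefore no replicates: each ratio is a single value with no error, no test could be run, and "higher" or "lower" compares these pools only. In whole liver, a lower signal from fewer cells of a type and from less RNA per cell cannot be told apart.

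Long-chain fatty acids enter mitochondria as carnitine esters. Inside, each turn of the beta-oxidation spiral removes an acetyl unit through a dehydrogenation, a hydration, a further dehydrogenation and a thiolytic cleavage, and electron transfer flavoprotein carries electrons from the acyl-CoA dehydrogenases to the respiratory chain. In the fasted liver much of the acetyl-CoA becomes the ketone bodies acetoacetate and hydroxybutyrate, which other organs burn. The nuclear receptor PPAR alpha and the coactivator encoded by Ppargc1a drive many of these genes in fasting.

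Most of the genes had a slightly higher signal in the L-Lpcat3 KO pool. On the brightest probe set of each gene, 28 of 31 log2 ratios (L-Lpcat3 KO over Flox/Flox) lay above 0, where 50.7% of all measured genes did. The exceptions were Acads, Hadhb and Pdk2. The median log2 ratio was 0.13, or 1.10-fold, against 0.00 over all measured genes, and the ratios ran from -0.10 to 0.50. No gene of the list reached 1.5-fold in either direction, a size that 4.01% of all measured genes reached upward and 3.14% downward. At 1.2-fold, 5 genes were higher (Slc22a5, Crat, Acad10, Etfdh and Bdh1) and 0 were lower. Of all measured genes 15.5% were at least that much higher and 13.6% that much lower, so the share of 16.1% among the listed genes lay near the background.

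Ratios of dim genes scatter more than those of bright genes, and most of the listed genes are bright, so they were also set beside genes of similar signal, a comparison added after the data were seen. Of the 27 listed genes with a mean signal over 1000, 24 had a log2 ratio above 0, as did 48.5% of all 4267 such genes. Their median log2 ratio was 0.12, against -0.01 for all genes over this signal. At 1.2-fold, 3 of the 27 were higher (Slc22a5, Etfdh and Bdh1) and 0 lower, where 4.97% of the bright genes were higher and 5.39% lower. When genes above the floor in both pools were divided into 10 equal classes by signal, 10 of the 31 listed genes exceeded the SD of the log2 ratios in their own class, and 12.6% of all genes did. These were Slc22a5, Crat, Acadl, Acad10, Ivd, Hadh, Eci1, Etfdh, Bdh1 and Acat1. None of the 31 fell below minus 1 SD, where 12.4% of all genes lay. Bdh1 at 3.01 SD and Crat at 2.12 SD were the only listed genes past 2 SD, a distance that 2.38% of all genes exceeded upward. This SD is a spread across genes and not across mice. The next brightest probe sets of Crat (log2 ratio -0.40) and Slc22a5 (-0.22) read lower in L-Lpcat3 KO.

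**Figure D1:**
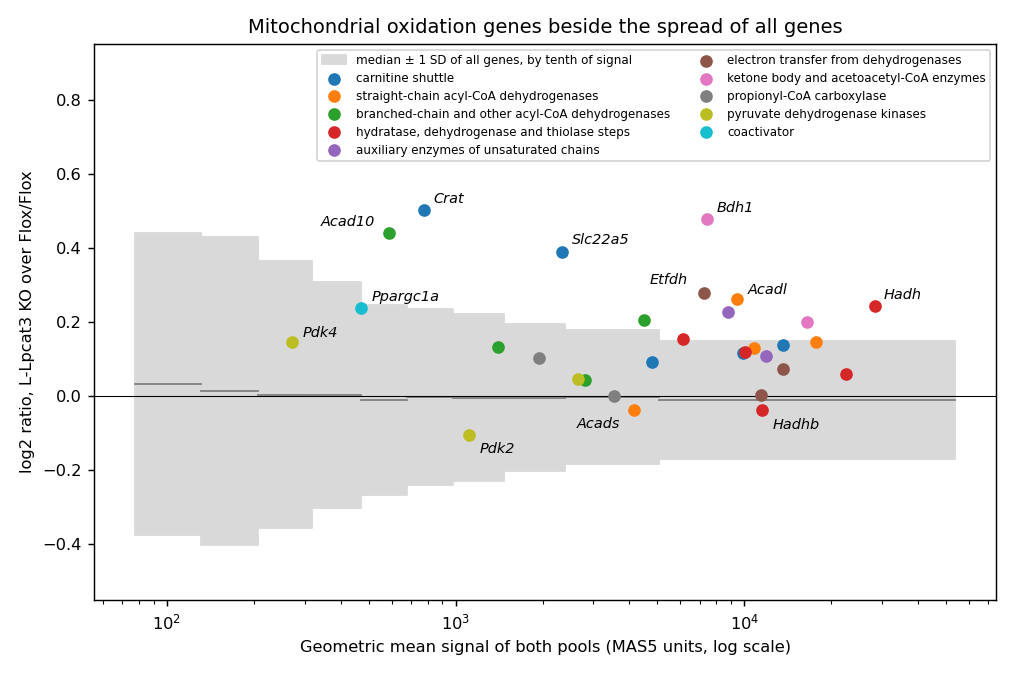
Log2 ratio (vertical axis, L-Lpcat3 KO over Flox/Flox) against mean signal (horizontal axis, geometric mean of the pools, MAS5 units, log scale) for the 31 genes, coloured by step. The grey band is the median ± 1 SD of all genes above the floor in both pools in each of 10 equal classes by signal. Bdh1, with a log2 ratio of 0.48, stands farthest above its band, and no gene lies below it.

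**Figure D2:**
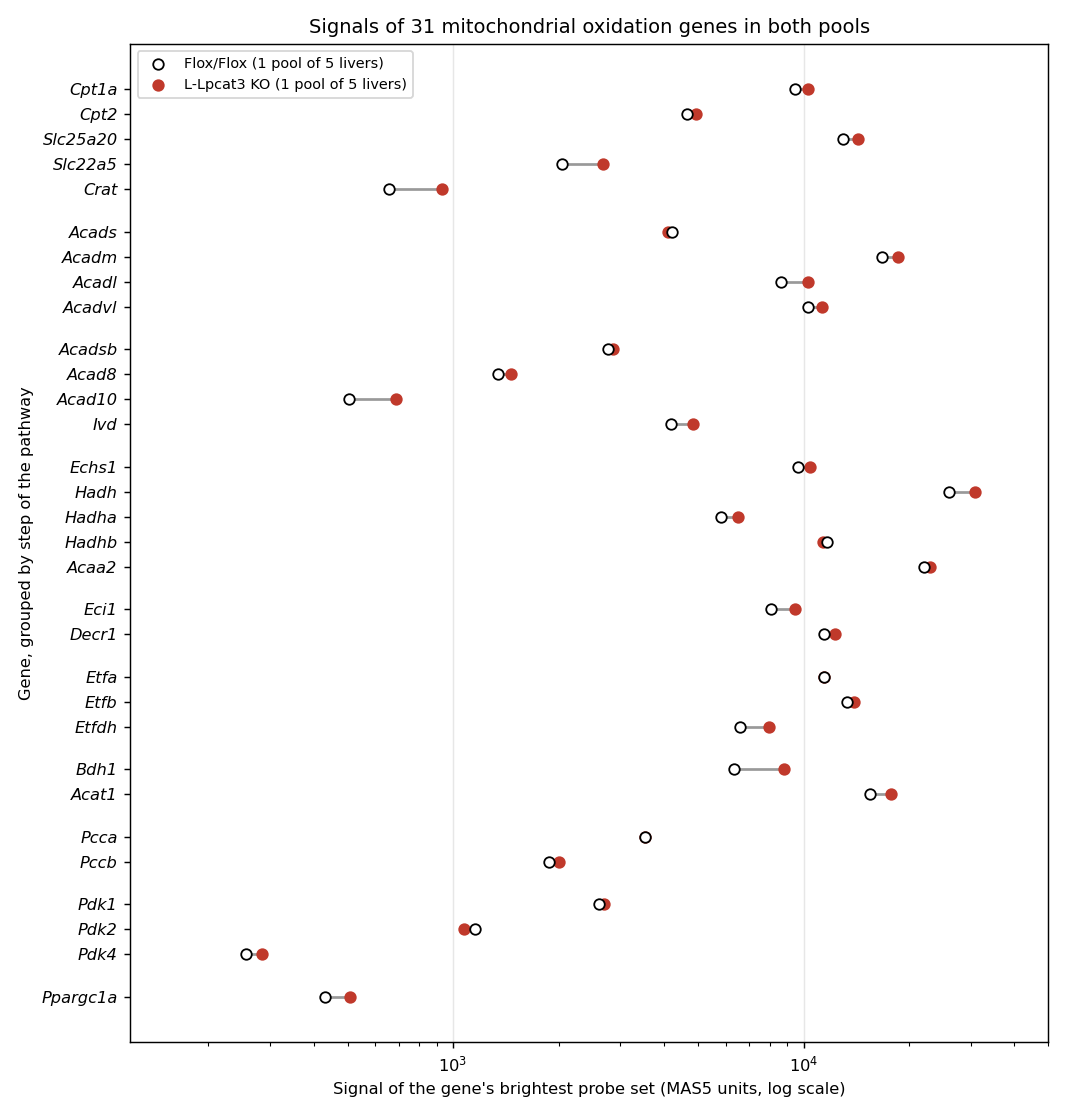
Signal of the brightest probe set of each gene in the Flox/Flox pool (open circles) and the L-Lpcat3 KO pool (red circles), on a log axis in MAS5 units, with 1 pool of 5 livers per genotype. The red circle lies to the right for 28 of 31 genes, and the longest lines are those of Crat, Bdh1, Acad10 and Slc22a5.

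Sequence before the transcription start is shown for genes of the entry, dehydrogenation and thiolase steps, to compare them for AGGTCA, the core letters of sites bound by PPAR alpha, CCAAT, a common promoter motif, and GGGCGG, bound by Sp1-type factors and added after the data were seen. RefSeq windows of GRCm38.p6 matched 28 of the 32 genes, with 32 windows. The 250 bases before each start are printed 5′ to 3′ on the gene's strand, and capitals mark any of the motifs on either strand. Cpt1a is shown as the gene of the entry step and Acadm as the medium-chain dehydrogenase, both with AGGTCA (read as TGACCT). Slc22a5 had the highest ratio of the shuttle genes with a window. Hadhb shares its window with Hadha.
Cpt1a (chr19:3323051-3323300, plus strand): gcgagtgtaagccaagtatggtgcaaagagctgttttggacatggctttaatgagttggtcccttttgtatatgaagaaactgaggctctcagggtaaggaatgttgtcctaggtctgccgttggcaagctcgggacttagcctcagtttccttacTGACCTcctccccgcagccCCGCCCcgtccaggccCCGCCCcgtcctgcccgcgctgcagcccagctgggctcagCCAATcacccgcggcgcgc
Acadm (chr3:153944644-153944893, minus strand): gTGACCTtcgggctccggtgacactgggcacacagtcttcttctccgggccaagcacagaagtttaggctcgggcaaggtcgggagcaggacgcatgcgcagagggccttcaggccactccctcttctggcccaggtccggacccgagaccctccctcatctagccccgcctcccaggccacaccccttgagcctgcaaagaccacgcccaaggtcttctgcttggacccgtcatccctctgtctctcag
Slc22a5 (chr11:53891704-53891953, minus strand): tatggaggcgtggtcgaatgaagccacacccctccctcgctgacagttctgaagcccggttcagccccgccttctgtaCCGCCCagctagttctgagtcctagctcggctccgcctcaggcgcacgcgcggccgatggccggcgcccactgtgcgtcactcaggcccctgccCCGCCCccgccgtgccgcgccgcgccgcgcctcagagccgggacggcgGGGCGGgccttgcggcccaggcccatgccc
Hadhb (chr5:30155003-30155252, plus strand): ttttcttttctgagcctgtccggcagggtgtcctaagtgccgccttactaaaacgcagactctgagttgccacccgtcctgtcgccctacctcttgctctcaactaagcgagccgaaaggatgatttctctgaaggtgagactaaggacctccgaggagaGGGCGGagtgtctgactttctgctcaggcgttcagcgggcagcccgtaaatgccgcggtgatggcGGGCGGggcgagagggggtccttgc

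Hadha and Hadhb face away from each other, with 272 bases between their starts, and 228 bases belong to the windows of both genes, and their brightest probe sets gave log2 ratios of 0.15 for Hadha and -0.04 for Hadhb. AGGTCA was found on either strand in the windows of Acadm, Acadvl, Cpt1a, Echs1 and Pcca, 5 of 32 windows, and in 14% of all 32851 RefSeq windows of this length. The log2 ratios of these genes ran from 0.00 for Pcca to 0.15 for Acadm. Crat, which had the highest ratio of the list, and Acaa2, Decr1 and Acat1 had no window and could not be searched. Whether the motif goes with the ratios was not tested. PPAR alpha binds such letters as a pair in the same orientation with 1 base between them. Exact copies of this pair of AGGTCA were in 0 of the 32 windows and 0.0335% of all windows. At so low a share, 0 among 32 windows tells nothing about the listed genes. CCAAT occurred in 11 of the 32 windows, from 10 listed genes, and in 33.8% of all windows. It was in those of Etfa, Etfb and Etfdh, the electron transfer genes. GGGCGG occurred in 16 of the 32 windows, such as those of Cpt1a, Cpt2, Slc25a20 and Slc22a5 of the shuttle, and in 32.7% of all windows. The median share of G and C was 58.8% in the listed windows and 52.4% in all windows. Its part in the GGGCGG count was not tested. The windows of Bdh1 held none of the motifs. CCAAT and GGGCGG can overlap by their end letters on opposite strands. A match or its absence describes the letters of this window only.

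Entry of fatty acids through the carnitine shuttle was represented by 5 genes, all with a higher signal in the L-Lpcat3 KO pool and a median log2 ratio of 0.14. Cpt1a, the outer membrane carnitine palmitoyltransferase that controls entry, gave a Flox/Flox signal of 9476 against 10274 in L-Lpcat3 KO (log2 ratio 0.12). For the genes that follow the signals stand in the same order, Flox/Flox first. Cpt2, which reforms the acyl-CoA inside, had 4636 and 4945 (0.09). The translocase gene Slc25a20, whose product exchanges acylcarnitine for free carnitine, had 12978 and 14280 (0.14). These core genes of the shuttle thus differed little between the pools. The genes that supply or buffer carnitine differed more. Slc22a5, which encodes the plasma membrane carnitine transporter, had 2049 and 2684, 1.31-fold higher in L-Lpcat3 KO (log2 ratio 0.39). Crat, encoding the acetyltransferase that moves short acyl groups to carnitine, had 655 and 928, 1.42-fold higher (0.50). The next brightest probe sets of Slc22a5 and Crat read lower in L-Lpcat3 KO, and their values are given with the probe sets further on.

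The 4 straight-chain acyl-CoA dehydrogenases, which open each turn of the spiral on chains of different length, had a median log2 ratio of 0.14. Acadvl, acting on very long chains at the inner membrane, had signals of 10326 and 11309 (log2 ratio 0.13). Acadl, the long-chain enzyme, had 8610 and 10319 (0.26), just short of 1.2-fold. Acadm, the medium-chain enzyme, had 16803 and 18600 (0.15). Acads, the short-chain enzyme, had 4218 and 4112 (-0.04), so the enzymes of longer chains were slightly higher in L-Lpcat3 KO and the short-chain enzyme was not.

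Among 4 dehydrogenases of branched and other substrates, whose median was 0.17, Acad10 stood out. Acad10, a relative whose substrates are less well known, had signals of 506 and 686, 1.36-fold higher in L-Lpcat3 KO (log2 ratio 0.44), and its other probe set, at 135 and 191, was also higher (0.50). Ivd, isovaleryl-CoA dehydrogenase of leucine breakdown, had 4185 and 4824 (0.21). Acad8, which serves valine breakdown, had 1339 and 1468 (0.13). Acadsb, the short branched-chain enzyme of isoleucine breakdown, had 2769 and 2852 (0.04). All 4 were on the same side of 0.

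The hydration, second dehydrogenation and thiolysis steps were covered by 5 genes with a median log2 ratio of 0.12. Echs1, the short-chain enoyl-CoA hydratase, had signals of 9628 and 10456 (0.12). Hadh, the hydroxyacyl-CoA dehydrogenase of shorter chains, had 26036 and 30801 (0.24), the highest ratio of this step. Hadha, encoding the alpha subunit of the trifunctional protein that carries out these steps on long chains, had 5827 and 6484 (0.15). Hadhb, its beta subunit and long-chain thiolase, had 11672 and 11365 (-0.04) on its brightest probe set. The next brightest read 9869 and 11991 (0.28). The direction for Hadhb thus depended on the probe set. Acaa2, the thiolase of shorter chains, had 22076 and 23028 (0.06). The auxiliary enzymes that let unsaturated chains pass through the spiral were both slightly higher. Eci1, an enoyl-CoA isomerase, had 8103 and 9486 (0.23), and Decr1, the dienoyl-CoA reductase, had 11413 and 12307 (0.11).

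Electron transfer was uneven across its 3 genes. Etfa and Etfb encode the subunits of electron transfer flavoprotein. Their signals were nearly level, at 11436 and 11459 for Etfa (log2 ratio 0.00) and 13268 and 13971 for Etfb (0.07). Etfdh, the dehydrogenase that passes the electrons on to ubiquinone, had 6584 and 7986, 1.21-fold higher in L-Lpcat3 KO (0.28).

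Ketone body metabolism gave the largest ratio among the bright genes of the list. Bdh1, which encodes the mitochondrial hydroxybutyrate dehydrogenase that interconverts acetoacetate and hydroxybutyrate, had signals of 6319 and 8803, 1.39-fold higher in L-Lpcat3 KO (log2 ratio 0.48). Its dimmer probe set, at 914 and 1143, was higher as well (0.32). Acat1, the mitochondrial acetoacetyl-CoA thiolase, had 15440 and 17728 (0.20), and its other probe sets read 9612 and 10337 (0.10) and 2063 and 2269 (0.14). All probe sets of Bdh1 and Acat1 lay above 0.

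Odd chains and some amino acids end as propionyl-CoA, and the carboxylase that takes it up was level or nearly so, with Pcca at 3529 and 3533 (log2 ratio 0.00) and Pccb at 1873 and 2012 (0.10). The pyruvate dehydrogenase kinases, which switch off glucose-derived acetyl-CoA when fat is burned, had a median log2 ratio of 0.05. Pdk1 had 2617 and 2701 (0.05), Pdk2 had 1153 and 1073 (-0.10), and Pdk4, the isoform best known for its induction in fasting, had 257 and 284 (0.15). None of the kinases exceeded 1 SD of the ratios at its signal. Ppargc1a, the coactivator, had 432 and 510 (0.24), and its 5 probe sets ran from -0.02 to 0.36.

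**Figure D3:**
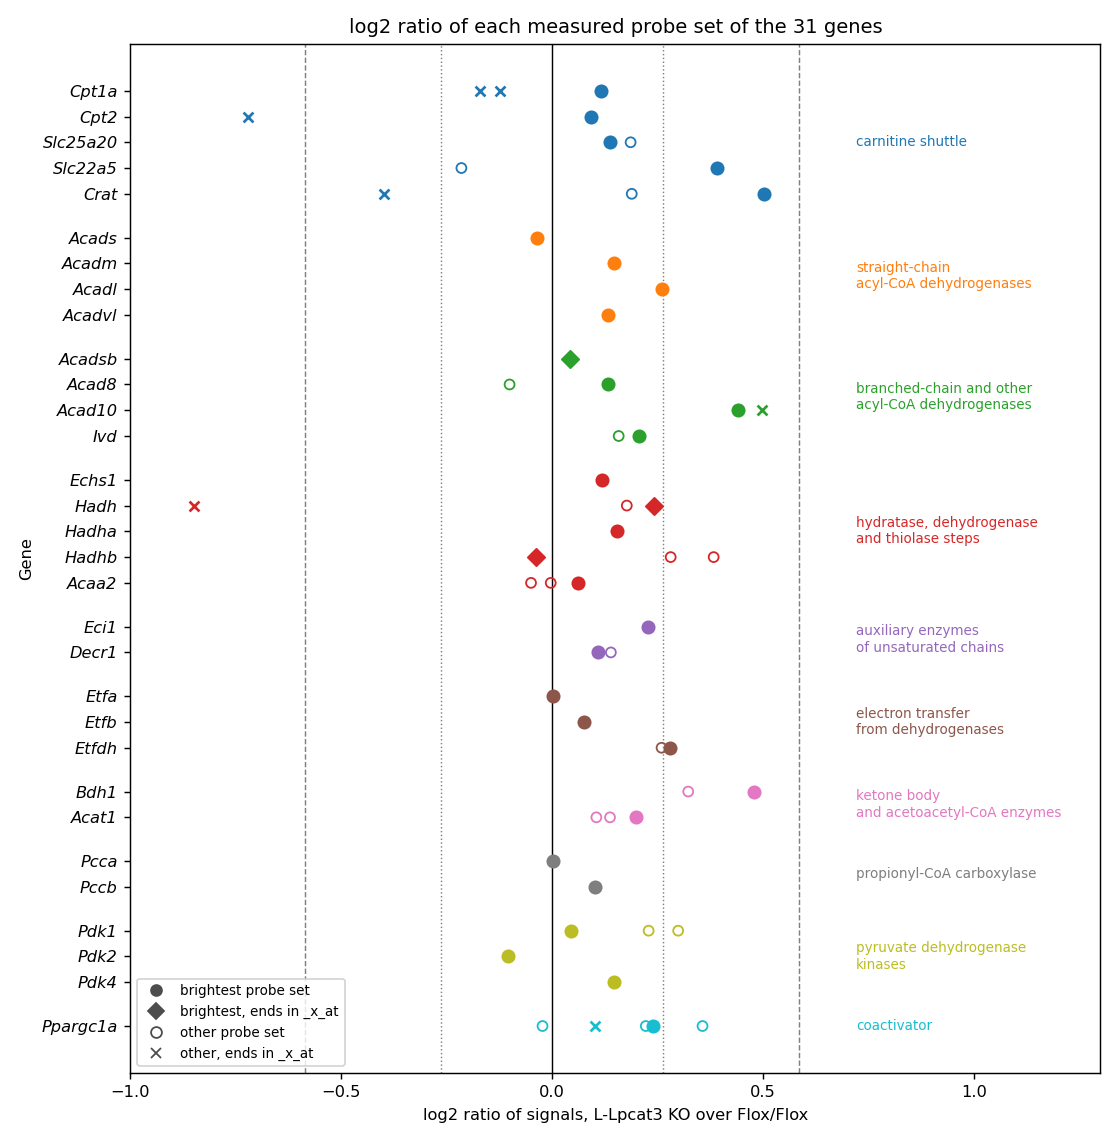
Log2 ratio (horizontal axis, L-Lpcat3 KO over Flox/Flox, signals below the floor raised to it) of all 58 measured probe sets of the 31 genes, by gene and coloured by step. Filled symbols are the brightest probe set of a gene, and diamonds and crosses are probe sets ending in _x_at. Dotted lines mark 1.2-fold and dashed lines 1.5-fold. Of the 58, 45 lie above 0, and the points farthest to the left are _x_at probe sets of Hadh and Cpt2.

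Several probe sets read the same transcripts in the same RNA pools, so they are repeat readings and not replicates. Of the 61 probe sets, 58 exceeded the floor in at least 1 pool and 3 in neither. A log2 ratio above 0 was found for 45 of the 58. Of 17 genes with several measured probe sets, 8 had all on the same side of 0 and 9 did not (Acaa2, Acad8, Cpt1a, Cpt2, Crat, Hadh, Hadhb, Ppargc1a and Slc22a5). Readings below 0 made up a larger share of the dim probe sets, but bright probe sets disagreed too. Of probe sets with a mean signal over 1000, 34 of 41 lay above 0, and of dimmer ones 11 of 17. Among 10 genes with several probe sets over 1000, 7 had them on 1 side of 0. The other 3 were Acaa2, Cpt1a and Hadhb, and the widest span was 0.32, for Hadhb.

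Among the carnitine genes, Cpt1a gave 5096 and 4525 (log2 ratio -0.17) and 1500 and 1377 (-0.12) on its other probe sets. The less bright probe set of Slc22a5 gave 206 and 178 (-0.22). Those of Crat gave 589 and 446 (-0.40) and 102 and 116 (0.19). A higher carnitine shuttle in the L-Lpcat3 KO pool was therefore not a shared reading of its probe sets, apart from Slc25a20, which gave 4120 and 4688 (0.19) on its other probe set.

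Among the genes of the spiral, Hadh read 10676 and 12070 (log2 ratio 0.18) on its next probe set, beside 0.24 on the brightest, and 428 and 237 (-0.85) on a dim _x_at probe set. The brighter readings of Hadh thus pointed the same way. Acaa2 gave 15322 and 14799 (-0.05) and 12947 and 12918 (-0.00), so that its probe sets scattered around 0. The dim probe set of Hadhb gave 187 and 243 (0.38). Decr1 read 1972 and 2172 (0.14) on its other probe set, close to the 0.11 of the brightest. Among the branched-chain genes, Ivd gave 2461 and 2746 (0.16), close to its brightest probe set, and Acad8 gave 669 and 624 (-0.10), on the other side of 0. The kinase Pdk1 read higher on its other measured probe sets than on the brightest, with 1864 and 2184 (0.23) and 1129 and 1388 (0.30). Ppargc1a gave 426 and 497 (0.22), 447 and 480 (0.10) and 269 and 344 (0.36), with 1 probe set level at 354 and 349 (-0.02). A pair of probe sets crossed the floor between the pools: that of Cpt2 read 126 and 73.5, and that of Etfdh 67.1 and 91.4. Those of Acadl, Pcca and Pdk1 that stayed below the floor in both pools read 65.5 and 42.8, 63.5 and 39.9, and 27.8 and 42.8.

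Probe sets ending in _x_at, whose probes may also match other transcripts, did not share the upward lean of the others. Of the 10 measured ones in 8 genes, 4 lay above 0, with a median of -0.08, and of the other 48 probe sets 41 did, with a median of 0.15. Across the array 43.5% of measured _x_at probe sets and 51.3% of the others lay above 0. The 10 listed _x_at probe sets were thus near the share of all such probe sets.

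Of the other genes of these pathways, those of ketone bodies did not follow Bdh1 and Acat1. Among 5 measured, 1 had a log2 ratio above 0 and the median was -0.16. Bdh2, a cytosolic dehydrogenase of the same family, had signals of 696 and 514 (-0.44), and Slc16a6, a transporter linked to ketone body release from the liver, had 210 and 159 (-0.40). The monocarboxylate transporter genes differed, with Slc16a1 at 2810 and 2789 (-0.01) and Slc16a7 at 1171 and 1825, 1.56-fold higher in L-Lpcat3 KO (0.64). Ketone body genes outside the list thus pointed both ways.

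Further genes of beta-oxidation and carnitine metabolism leaned the same way as the listed genes. Of 14 measured, 11 had a log2 ratio above 0, with a median of 0.19, and 3 were at least 1.2-fold higher and 0 lower. Over all measured genes 50.7% lay above 0, 15.5% were at least 1.2-fold higher and 13.6% that much lower. The same shares stand beside the counts of the other lists. Acad12 had signals of 105 and 145 (0.47). Acacb, the acetyl-CoA carboxylase whose product malonyl-CoA inhibits the entry step, had 1444 and 1838 (0.35). Echdc3 had 3021 and 3635 (0.27). Dbi, the acyl-CoA binding protein, had 39176 and 38078 (-0.04). Acacb, which restrains entry, was thus on the same side as the oxidative enzymes.

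Genes of propionate and cobalamin metabolism had a median log2 ratio of 0.13, with 4 of 6 above 0. Mmut, the mutase that leads propionate into the citrate cycle, had 4953 and 5259 (0.09). Mcee, the epimerase before the mutase, had 2927 and 3279 (0.16). Mmab, which makes the cofactor of the mutase, had 304 and 380 (0.32), and Mmadhc, a cobalamin trafficking gene, had 4144 and 4947 (0.26). The other cobalamin genes, Mmaa at 601 and 586 (-0.04) and Mmachc at 819 and 790 (-0.05), are added because they lay below 0. The pyruvate dehydrogenase complex and its other regulators had a median of 0.05, with 6 of 10 above 0. Dlat, the acetyltransferase subunit, had 1598 and 2096 (0.39), and its next probe sets gave 0.24 and 0.01. Pdp2, a phosphatase that opposes the kinases, had 848 and 1088 (0.36). Pdp1, the other such phosphatase, was named after its values were seen: it had 123 and 57.3, the latter below the floor, and was the 1 gene of this list at least 1.5-fold lower. Pdhb, the beta subunit of its first enzyme, had 9650 and 9065 (-0.09), and Mpc1, of the pyruvate carrier, had 10997 and 11430 (0.06).

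Regulators of mitochondrial oxidation genes lay close to 0. Of 14 measured, 10 had a log2 ratio above 0, the median was 0.07, and none reached 1.2-fold in either direction. Ppara, the gene of PPAR alpha, had 4958 and 5229 (0.08), a value given outside the rule for named genes because the receptor is named above. Lpin1, a coactivator of PPAR alpha as well as a phosphatidate phosphatase, had 13930 and 15156 (0.12). Sirt5 had 866 and 1023 (0.24), although its next probe set gave 717 and 525 (-0.45). Sirt3, the main mitochondrial deacetylase, had 3514 and 3972 (0.18), and Esrra, a receptor that works with Ppargc1a, had 768 and 865 (0.17).

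The listed genes were set beside other oxidative gene groups of the liver. Peroxisomes shorten very long chains by a related route that makes hydrogen peroxide, and 10 of 14 genes of this route had a log2 ratio above 0, with a median of 0.10. At 1.2-fold, 3 of the 14 were higher and 0 lower, beside 15.5% and 13.6% of all measured genes. The 1 gene past 1.5-fold was Abcd2. Pex11a, of peroxisome division, had 5251 and 6739 (0.36) and its other probe set 5096 and 6888 (0.43). Decr2, the peroxisomal counterpart of Decr1, had 2215 and 2737 (0.31). Ehhadh, the bifunctional enzyme, had 9608 and 11398 (0.25), and the thiolase Acaa1b had 36820 and 39339 (0.10). The highest point of this list, Abcd2, was named after its values were seen: its Flox/Flox signal of 42.9 lay below the floor and its L-Lpcat3 KO signal was 213, at least 2.78-fold higher for this floor. Its probe set above the floor in both pools read 79.7 and 87.9 (0.14), and of those below the floor in both pools 1 read lower in L-Lpcat3 KO, so the size of the difference for Abcd2 rests on 1 probe set. Subunits of the respiratory chain and ATP synthase, which use the electrons of beta-oxidation, centred on 0. Of 38, 21 lay above 0, the median was 0.01, and none reached 1.2-fold. Uqcrb of complex III had 43029 and 41217 (-0.06), and Sdhd of complex II had 6346 and 7252 (0.19). Cox5a of complex IV had 30273 and 26623 (-0.19), while its next probe sets gave 0.02 and -0.13. Atp5b of ATP synthase had 26946 and 22732 (-0.25). Citrate cycle enzymes lay between, with 10 of 13 above 0, a median of 0.07 and none at 1.2-fold. Fh1 had 16048 and 14740 (-0.12), Mdh2 had 13579 and 11947 (-0.18) and Suclg1 had 10378 and 11611 (0.16). The differences between these groups were not tested.

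**Figure D4:**
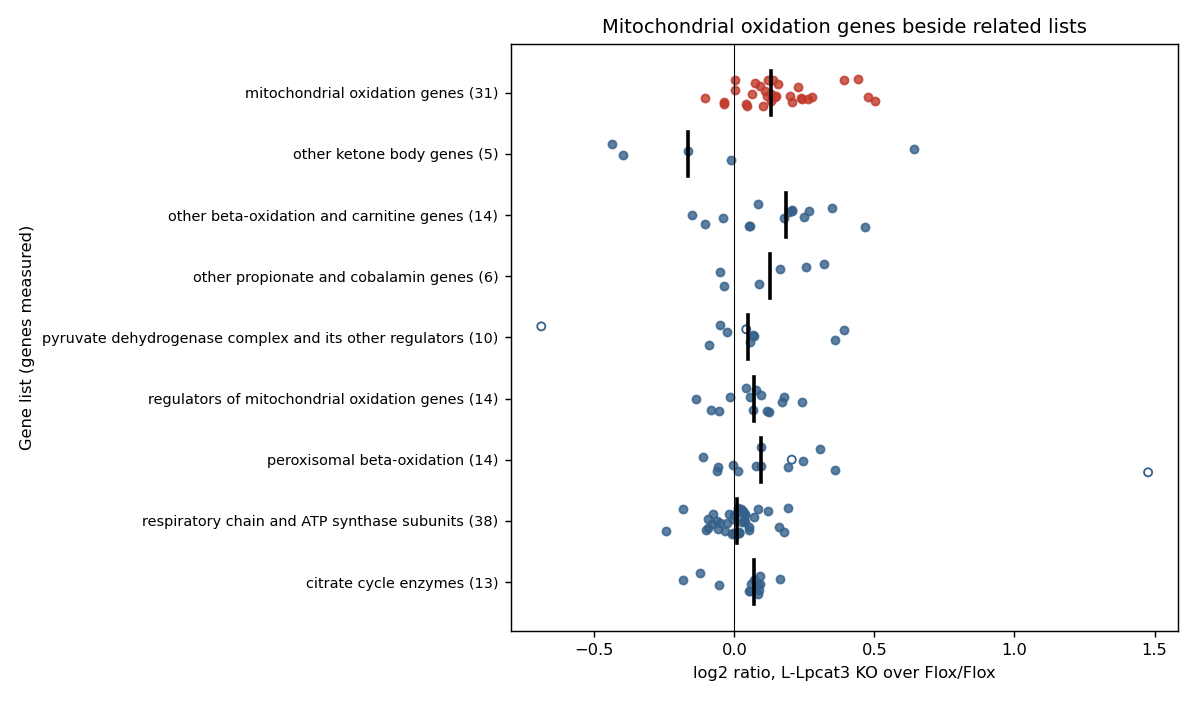
Log2 ratio (horizontal axis, L-Lpcat3 KO over Flox/Flox) of each measured gene in the listed mitochondrial oxidation genes (red) and in related lists (blue), with the number measured in brackets. Black bars are medians, open circles are genes below the floor in 1 pool, and the vertical position within a list has no meaning. The median is 0.13 for the listed genes and 0.01 for the respiratory chain.

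The arrays had the same trimmed mean signal of 500.0, and log2 signals of genes above the floor in both pools correlated with r = 0.989 across genes. For the targeted gene Lpcat3 the Flox/Flox signal was 3310 and that of L-Lpcat3 KO 1305 (log2 ratio -1.34). Whether its probe set lies in the deleted exon is not known here, so this value alone does not check the deletion. All 12 hepatocyte markers were present, with a median log2 ratio of -0.01 and a range from -0.06 to 0.17. Markers of Kupffer cells and macrophages were lower for 13 of 13 (median -0.30), with summed signals of 14051 and 12098. Endothelial markers were higher for 5 of 8 (median 0.22), with summed signals of 7639 and 8735. Stellate cell markers had a median of 0.04 and summed signals of 9324 and 8999 over 6 measured genes. Of the 6, 4 lay above 0, and Col3a1 was the lowest at 1758 and 1151 (log2 ratio -0.61). Bile duct, neutrophil and lymphocyte markers were mostly near the floor, with summed signals of 278 and 307 over 3 genes, 262 and 279 over 4 genes, and 209 in both pools over 2 genes. Of the 3 bile duct genes, 2 lay above 0, and Sox9 lay below at 162 and 77.6 (-1.06). The part of the differences in all these markers in the values of the mitochondrial genes was not tested.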

How the data were processed

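Total liver RNA of 2 pools of 5 mice was measured on 1 array each. For each array the authors deposited an intensity value per probe set, the MAS5 signal on a linear scale per the submitters' processing notes. Its version was not given in sources used, and the methods name GeneSpring GX. Without the lowest and highest 2% of signals both arrays had a mean of 500.0, so they had been scaled before deposit, and no further scaling was applied. The Flox/Flox signals spanned 0.113 to 60906 and the L-Lpcat3 KO signals 0.0984 to 55070.

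Of 45101 probe sets, 64 were controls, 34945 had 1 gene in the platform annotation (symbols updated by gene ID to RefSeq GRCm38.p6), 932 had several and 9160 were unnamed. A gene took the value of its brightest probe set by mean log2 signal. Signals under the median of both arrays (76.4) were raised to this floor in ratios, and a gene was measured if at least 1 pool exceeded it. This left 12059 of 18193 genes, of which 10820 exceeded the floor in both. With 1 array per group no test was run, and the number of arrays limits the precision. Genes were counted by sign and at 1.2-fold and 1.5-fold, each beside all measured genes. The members of the list, the other lists and the sizes were chosen with earlier results of these data known.

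Every listed gene was named. Of each other list, the brightest gene and up to 3 with the largest log2 ratios above the floor in both pools were named. Motifs were searched in the 250 bases before each RefSeq start. Scripts were tested on simulated data. Alternatives changed the scaling, the floor and the choice of probe set. Calculations ran in Python 3.11.15 (pandas 2.3.3, numpy 2.4.6, statsmodels 0.14.6, scipy 1.17.1), with plots by matplotlib 3.10.9. Matched arrays of mice on western diet and the proteins of the listed genes were not analysed here.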

Additional observations from a re-analysis of the deposited data

How the results depend on the processing

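Results were recomputed under 9 alternatives: median centring, quantile normalization or loess, a floor at the 25th or 75th percentile or none, the mean of measured probe sets, no _s_at or _x_at probe sets, and the second brightest probe set in place of the brightest. For the latter only 17 genes had a value, which by itself lowers each count. Shares of all genes by sign and size were not recomputed under the alternatives. The counts of listed genes given here therefore have no background of their own. The median log2 ratio of the listed genes ran from 0.12 to 0.15. With the second brightest probe set, 11 genes lay above 0, 3 were at least 1.2-fold higher, 2 at least 1.2-fold lower and 1 at least 1.5-fold lower, the carnitine shuttle median was -0.22, and 7 of the 17 genes changed sign: Cpt1a (-0.17), Cpt2 (-0.72), Slc22a5 (-0.22), Crat (-0.40), Acad8 (-0.10), Acaa2 (-0.05) and Hadhb (0.28). With the mean of probe sets, 3 genes were at least 1.2-fold higher and 1 lower. Crat (0.10) and Slc22a5 (0.09) stayed above 0 there but fell short of 1.2-fold. Cpt1a (-0.06), Cpt2 (-0.31), Hadh (-0.14) and Hadhb (0.21) changed sign. Without _s_at and _x_at probe sets Hadhb (0.28) and Acaa2 (-0.05) did. No listed gene changed sign under the other scalings or floors. The median of the pyruvate dehydrogenase kinases was -0.03 under the 75th percentile floor because Pdk4 had no value there. Pdk1 (0.05) and Pdk2 (-0.10) were unchanged. Of the single-gene values under the alternatives, 249 moved by less than the SD of log2 ratios at their signal and the others, all under another choice of probe set, by more. The cause was not tested. No paired analysis was possible because each group is 1 array, and no replicate could be left out. With 1 pool per genotype, variation among mice cannot be seen, and signals near the floor carry little information.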
